A study of Mus musculus with 6 samples.

Results

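IRE1, encoded by Ern1, and 7 transcripts reported as substrates of its RNA decay activity were followed in mouse liver by bulk RNA sequencing. The 8 genes, Ern1, Bloc1s1, Scara3, Hgsnat, Pmp22, Tapbp, Rtn4 and Galnt2, were taken by exact symbol from the 35976 rows of the deposited count table, and each was found once. The study compared livers of genotype IRE1PKO with livers of genotype IRE1fl, with 3 libraries of each. All 6 came from male mice kept on HFD (taken to mean a high-fat diet) that had fasted for 16 hours and then fed for 4 hours. The series title places the work in the communication between pituitary and liver, but the labels do not spell out PKO or fl. The sources used here do not give the driver of the deletion or the strain and age of the mice. Nor do the labels tie each library to an animal of its own, so the spread behind each p-value is that between libraries and could be technical.

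IRE1 senses unfolded proteins and spans the membrane of the endoplasmic reticulum (ER). Its cytosolic part holds a kinase and an endoribonuclease. When activated, it cuts the Xbp1 transcript at a pair of stem-loops so that the ligase RTCB can join the ends into the form that encodes the transcription factor XBP1s. The same nuclease cuts a set of other transcripts at the ER that are then degraded, a process called regulated IRE1-dependent decay (RIDD). Hepatocytes secrete large amounts of protein, and liver IRE1 is known for its roles in secretion and lipid handling.

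The stem-loop that IRE1 cuts has a 7-base loop of the form CNGCAGN closed by paired bases. The coding sequences of GENCODE M21 (GRCm38, the same build as mm10) were searched on the transcript strand for this loop flanked by at least 4 consecutive pairs, counting G with T as a pair. The sites are shown because IRE1 is known to cut at such stem-loops. Each sequence is the transcript strand, 5′ to 3′, with the loop in capitals.
Xbp1, first site: tctgctgagtCCGCAGCactcagacta
Xbp1, second site: atgtgcacctCTGCAGCaggtgcaggc
Bloc1s1: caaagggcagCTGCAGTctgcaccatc
Pmp22: gagcgaatggCTGCAGTctgtccaggc
Ern1: tggcgagaagCAGCAGActttgtcatc
Rtn4, long isoforms: aatagagagtCAGCAGAgttttcagta
Hgsnat, closest match: ccctggtgtcCTGCAGCggttgggagt
Galnt2, closest match: gaggcgatccCGGCAGGggaacccagt

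The Xbp1 sites, in exon 4 of 5 at chr11:5524266-5524292 and chr11:5524292-5524318 on the plus strand, had 6 and 7 pairs. They are known cut sites of the form searched for, so finding them does not test the search. The Bloc1s1 site, in exon 4 of 4 at chr10:128920001-128920027 on the minus strand, had 4 pairs. The Pmp22 loop had 4 pairs as well and lies in exon 4 of 5 at chr11:63151124-63151130 on the plus strand, with the printed window crossing an exon junction. Ern1 itself held a site with 4 pairs in exon 6 of 22, at chr11:106426869-106426895 on the minus strand. For Rtn4 the site had 6 pairs and lies in exon 3 of 9 of the longest isoform, at chr11:29706655-29706681 on the plus strand. Only 2 of 6 complete coding isoforms of Rtn4 hold it, and counts per gene do not say which isoform was measured. Hgsnat (exon 11 of 18, chr8:25955741-25955767, minus strand) and Galnt2 (exon 9 of 16, chr8:124332058-124332084, plus strand) came no closer than 3 pairs. Tapbp and Scara3 had the loop letters but no pairs closing them.

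With 1 principal isoform per gene, 2 of the 7 substrates held such a hairpin, against 7.36% of 21782 coding sequences. The letters CTGCAG alone were in 6 of the 7 and in 65.6% of all coding sequences, so they are common. Both shares grow with the length of the coding sequence, and a match is a description of letters, not a shown cut. The loop is the form that IRE1 is known to cut and the 7 are reported substrates, so the comparison is not an independent test.

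Of the 8 genes, Rtn4 rose and Ern1 fell in IRE1PKO livers, and the other 6 did not pass the test (edgeR quasi-likelihood test, adjusted over 14954 tested genes, threshold 0.05). All 8 passed the filter on low counts. Among all tested genes 9.54% were called, 5.68% higher and 3.86% lower. The groups did not overlap for 3 of the 8 genes, Rtn4, Ern1 and Scara3, against 31.0% of all tested genes (16.0% with IRE1PKO higher and 15.0% lower). The median log2 fold change (IRE1PKO over IRE1fl) of the 7 substrates was 0.061, with 4 values above 0 and 3 below, beside a median of -0.0014 over all tested genes. The levels by library set Rtn4 apart from the other substrates. Levels are CPM, counts relative to the scaled library total. They do not separate RNA decay from synthesis, and it is not stated whether IRE1 was deleted in liver. Whether decay by IRE1 changed for these or the further substrates below was not tested.

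**Figure D1:**
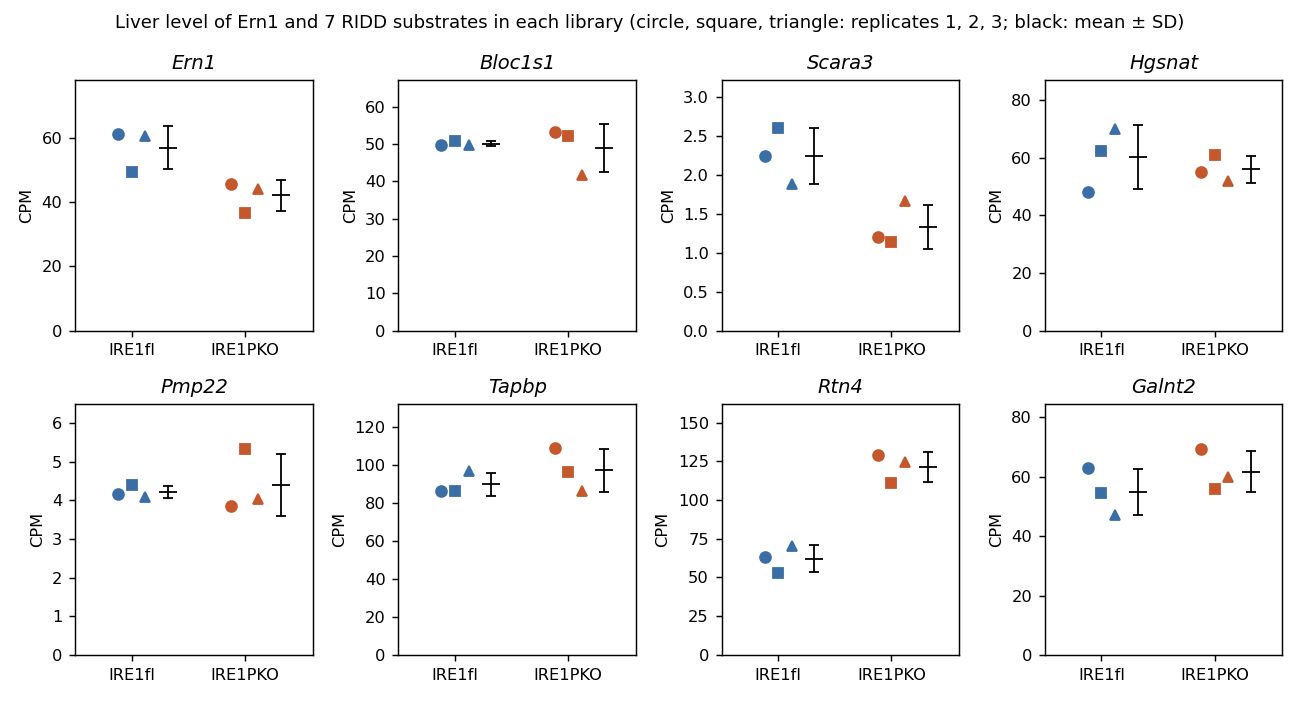
CPM of the 8 genes in each library (y axis, from 0), by genotype (x axis), with black bars for mean and SD of 3 libraries. Rtn4 lies between 52.7 and 70.1 CPM in IRE1fl and between 111 and 129 CPM in IRE1PKO, while Bloc1s1, Hgsnat, Pmp22, Tapbp and Galnt2 overlap between the groups.

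Ern1 (chromosome 11, 106394650 to 106487852, minus strand, 22 exons) had 61.2, 49.3 and 60.8 CPM in IRE1fl libraries 1 to 3. In IRE1PKO libraries 1 to 3 it had 45.7, 36.6 and 44.2 CPM. Every IRE1PKO library was below every IRE1fl library, and library 2 was the lowest of its group in both genotypes. The gap between the groups was narrow, from 45.7 CPM in the highest IRE1PKO library to 49.3 CPM in the lowest IRE1fl library. The difference was a log2 fold change of -0.44 (SE 0.11, 95% interval from -0.69 to -0.19, adjusted p = 0.0357), or 1.35-fold lower. Its size exceeded that of 74.4% of tested genes. The transcript thus remained at 42.2 ± 4.88 CPM in IRE1PKO livers (SD, n = 3). A count over the whole gene cannot show the loss of single exons, and a deletion made in another organ would leave this value with no bearing on the labels. With 1 library left out, Ern1 passed only without IRE1fl 2; without any other single library the adjusted p ran up to 0.137.

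Rtn4 (chromosome 11, 29692947 to 29744331, plus strand) encodes reticulon 4, also called Nogo, a protein that bends ER membrane into tubules. Its IRE1fl libraries held 63.4, 52.7 and 70.1 CPM, from 1859 to 2600 counts each. The IRE1PKO libraries held 129, 111 and 124 CPM, from 4079 to 5084 counts each. The lowest IRE1PKO library was thus well above the highest IRE1fl library. The rise was 1.96-fold, a log2 value of 0.97 (SE 0.11, 95% interval from 0.72 to 1.22, adjusted p = 7.1e-04). It was larger in size than the change of 92.4% of tested genes. Rtn4 passed under each of the 15 alternatives tried, and with 1 library left out the value ran from 0.86 to 1.06. Exons of Eml6, on the opposite strand, overlap Rtn4, and it is not stated whether the counts used strand. Eml6 had no more than 2.35 CPM in any library.

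Bloc1s1 (chromosome 10, 128917882 to 128924035, minus strand) is a widely used readout of RIDD and encodes a subunit of BLOC-1 and BORC, complexes that act on lysosomes and related organelles. It had 49.8, 50.8 and 49.6 CPM in IRE1fl and 53.1, 52.2 and 41.6 CPM in IRE1PKO. The IRE1fl libraries were nearly equal, while IRE1PKO 3 lay below all others and IRE1PKO 1 and 2 above. The log2 fold change was -0.032 (SE 0.10, 95% interval from -0.26 to 0.19, adjusted p = 0.88). Its sign turned without IRE1PKO 3 (0.072) and with library totals as the only scaling (0.036). Bloc1s1 shares exon sequence with Rdh5 on the same strand. Rdh5 had 21.2 to 29.1 CPM in IRE1fl and 15.4 to 18.5 CPM in IRE1PKO and did not pass (adjusted p = 0.0532).

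Tapbp (chromosome 17, 33915899 to 33929292, plus strand) encodes tapasin, which holds MHC class I molecules at the peptide transporter in the ER. Its levels were 86.5, 86.2 and 96.7 CPM in IRE1fl and 109, 96.4 and 86.5 CPM in IRE1PKO, so the groups overlapped. The log2 fold change was 0.11 (SE 0.10, 95% interval from -0.11 to 0.34, adjusted p = 0.526). Its exons overlap those of Zbtb22, which had 20.3 to 23.4 CPM over the 6 libraries.

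Galnt2 (chromosome 8, 124231391 to 124345724, plus strand) encodes a Golgi enzyme that starts mucin-type O-glycosylation. It had 62.9, 54.6 and 47.3 CPM in IRE1fl and 69.3, 55.8 and 59.9 CPM in IRE1PKO. The lowest library was of IRE1fl and the highest of IRE1PKO, with overlap between. Galnt2 shares exon sequence with the coding gene Gm20388 on the same strand and with the antisense gene 1810008B01Rik. Neither is named among the deposited counts. The log2 fold change was 0.17 (SE 0.12, 95% interval from -0.093 to 0.43, adjusted p = 0.418).

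Hgsnat (chromosome 8, 25944453 to 25976753, minus strand) encodes a lysosomal membrane acetyltransferase needed to break down heparan sulfate. Its IRE1fl levels of 48.1, 62.4 and 70.0 CPM spread more widely than its IRE1PKO levels of 55.0, 61.0 and 51.9 CPM. The IRE1PKO libraries all lay inside the IRE1fl range. The log2 fold change was -0.10 (SE 0.13, 95% interval from -0.39 to 0.19, adjusted p = 0.67), and it was 0.019 without IRE1fl 3.

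Pmp22 (chromosome 11, 63128982 to 63159547, plus strand), a small membrane protein best known from myelin, was low in liver. It had 4.15, 4.40 and 4.10 CPM in IRE1fl and 3.85, 5.32 and 4.03 CPM in IRE1PKO, where library 2 was the highest of all 6. The log2 fold change was 0.061 (SE 0.19, 95% interval from -0.36 to 0.48, adjusted p = 0.88). Without IRE1PKO 2 it was -0.097, so the sign rested on that library.

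Scara3 (chromosome 14, 65919394 to 65953935, minus strand), a scavenger receptor-like protein of class A, had the lowest level of the 8 genes. Its IRE1fl libraries had 2.24, 2.61 and 1.89 CPM, from 70 to 92 counts each. Its IRE1PKO libraries had 1.21, 1.14 and 1.66 CPM, from 42 to 68 counts each. The groups did not overlap, but the gap was only that between 1.66 and 1.89 CPM. The log2 fold change of -0.75 (SE 0.28, 95% interval from -1.36 to -0.13) did not pass after adjustment (adjusted p = 0.123). It passed under none of the 15 alternatives, where the adjusted p ran from 0.0963 to 0.313.

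**Figure D2:**
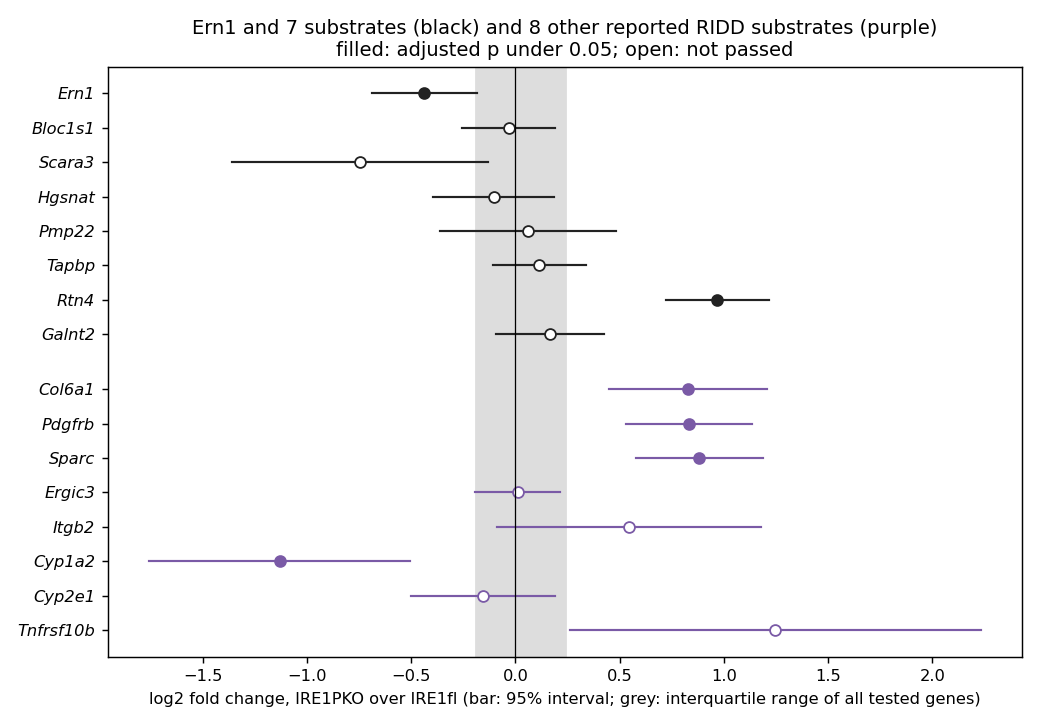
Log2 fold change (x axis, IRE1PKO over IRE1fl) with 95% interval for Ern1 and the 7 substrates (black) and for 8 other reported RIDD substrates (purple), filled where the adjusted p was under 0.05. The grey band is the interquartile range of all tested genes, from -0.19 to 0.24, and the whole intervals of Rtn4, Sparc, Pdgfrb, Col6a1 and Tnfrsf10b lie to its right, the last without passing. Only that of Cyp1a2, from -1.76 to -0.51, lies wholly to its left.

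The 8 transcripts also differed in level. Divided by the length of the principal isoform, IRE1fl levels were 91.0 ± 1.12 CPM per kb for Bloc1s1, 35.0 ± 4.93 for Rtn4, 31.0 ± 2.06 for Tapbp, 22.3 ± 4.14 for Hgsnat and 13.4 ± 1.90 for Galnt2 (SD, n = 3). Ern1 had 8.22 ± 0.970 CPM per kb, Pmp22 2.31 ± 0.0876 and Scara3 0.625 ± 0.101. In IRE1fl the libraries of Rtn4 and Tapbp overlapped on this scale and no other neighbours in the order did. In IRE1PKO the order was the same, with Rtn4 at 68.5 ± 5.41 and Tapbp at 33.6 ± 3.87 CPM per kb, and no neighbours overlapped. The place of Rtn4 depends on its isoform, since its IRE1fl mean was 35.0 CPM per kb with the principal isoform of 1773 bases. Over its 6 complete coding isoforms the mean ran from 13.4 CPM per kb with 4618 bases to 48.8 CPM per kb with 1272 bases.

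Of 8 further transcripts that have been reported as RIDD substrates, Sparc, Pdgfrb and Col6a1 rose, Cyp1a2 fell and 4 did not pass. Over all tested genes, 5.68% were called higher and 3.86% lower. The 8 had a median log2 fold change of 0.68, beside -0.0014 for all tested genes, and their hairpin count was 2 of 8, Cyp1a2 and Cyp2e1. Sparc, a matrix glycoprotein, had 61.9, 41.6 and 46.1 CPM in IRE1fl and 92.0, 97.2 and 86.6 CPM in IRE1PKO, a log2 fold change of 0.88 (SE 0.14). Pdgfrb, a growth factor receptor of stellate cells and pericytes, went from 8.01 ± 1.01 to 14.3 ± 1.10 CPM (SD, n = 3). Col6a1, a collagen chain, went from 10.1 to 17.9 CPM on average, and its call was lost without IRE1fl 3 or IRE1PKO 1 (adjusted p up to 0.0639). Cyp1a2, a drug-metabolising P450 of pericentral hepatocytes, had 373, 413 and 441 CPM in IRE1fl and 127, 263 and 170 CPM in IRE1PKO. Its log2 fold change of -1.13 (SE 0.26, adjusted p = 0.0452) passed under 9 of 15 alternatives and lost its call without any 1 of IRE1fl 1, 2 or 3 or IRE1PKO 3. Ergic3, a cargo receptor between ER and Golgi, had a log2 fold change of 0.0098.

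Several lists of cell type markers differed between the groups, in both directions. The counts below stand beside 5.68% of all tested genes called higher and 3.86% lower. Of 12 stellate cell markers, Pdgfrb among them, 8 rose and none fell, and their summed level was 261 to 322 CPM in IRE1fl and 492 to 509 CPM in IRE1PKO. Of 10 sinusoidal endothelial markers 4 rose, with sums of 276 to 314 and 324 to 440 CPM. Of 8 recruited macrophage markers 3 rose, with sums of 43.0 to 49.7 and 82.4 to 100.1 CPM. No marker of these 3 lists was at 0 in all libraries. Of 6 T and NK cell markers 1 fell, with sums of 5.43 to 5.66 and 2.36 to 2.71 CPM, and of 6 cholangiocyte markers 1 fell, with sums of 32.4 to 33.7 and 23.2 to 24.8 CPM. The sums of 2 lists overlapped between the groups. Of 8 Kupffer cell markers 1 fell and none rose, with sums of 357 to 492 and 415 to 595 CPM. None of 4 B cell markers passed, with sums of 3.31 to 4.71 and 3.75 to 4.75 CPM. Hepatocyte markers, 3 of 10 of them lower, summed to 98161 to 115856 CPM in IRE1fl and 92897 to 116394 CPM in IRE1PKO. Alb made up most of these sums, with means of 63170 CPM in IRE1fl and 64302 CPM in IRE1PKO. The 3 lower markers were Cps1, Fah and Pck1, with log2 fold changes of -1.16, -0.49 and -0.60. In bulk tissue, more cells of a type and more RNA per cell cannot be told apart, and the part these markers play in the values of Rtn4, Sparc, Pdgfrb and Col6a1 was not tested.

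**Figure D3:**
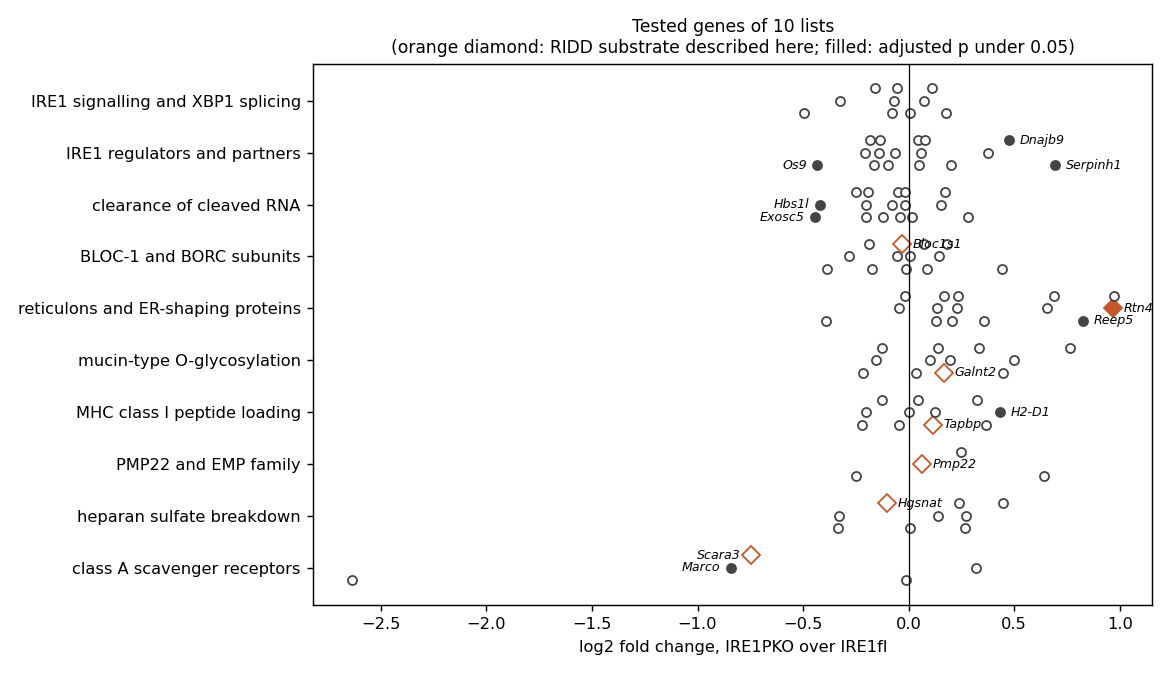
Log2 fold changes (x axis, IRE1PKO over IRE1fl) of the tested genes of 10 lists (rows), with the RIDD substrates as orange diamonds and genes past an adjusted p of 0.05 filled and named. In the ER-shaping row Rtn4 and Reep5 pass with values of 0.97 and 0.83, while the BLOC-1 and BORC row holds no filled symbol.

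Of 10 tested genes of IRE1 signalling and Xbp1 splicing none passed, and 4 had log2 fold changes above 0 (median -0.063). Zbtb8os, the archease cofactor of the RTCB ligase, had the smallest p of that list, with a log2 fold change of -0.32 (SE 0.11, adjusted p = 0.0868). Ern2, the paralog of Ern1 found in mucosal epithelia, had 0 to 2 counts per library and was not tested. Xbp1 had 277, 225 and 368 CPM in IRE1fl and 203, 154 and 259 CPM in IRE1PKO, and its groups overlapped. Its log2 fold change was -0.50 (SE 0.24, adjusted p = 0.259). A count per gene does not separate the Xbp1 transcript that IRE1 has cut and RTCB rejoined from the uncut one. Library 2 was the lowest of each group for Xbp1, as for Ern1 and Rtn4. Of 16 regulators and partners of IRE1, Dnajb9 and Serpinh1 rose and Os9 fell, beside 5.68% of all tested genes higher and 3.86% lower. Dnajb9, an ER co-chaperone that represses IRE1, had 34.8 to 37.4 CPM in IRE1fl and 45.5 to 54.8 CPM in IRE1PKO. Serpinh1, a collagen chaperone also known as HSP47, had 14.6 to 16.7 and 24.5 to 27.1 CPM. Os9, a lectin of ER-associated degradation, went from 284 to 299 CPM in IRE1fl to 203 to 230 CPM in IRE1PKO. Its call was lost without IRE1fl 3 or IRE1PKO 1 (adjusted p up to 0.0616).

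Cleaved fragments of RIDD substrates are cleared by cytosolic exonucleases and ribosome rescue factors. Of 16 genes for these factors, their cofactors or other RNA decay, 2 fell and none rose, beside 3.86% and 5.68% of all tested genes. Their median log2 fold change was -0.063. Hbs1l, the partner of the rescue factor Pelota, had a log2 fold change of -0.42 (SE 0.09, adjusted p = 0.0166), lost without IRE1fl 3 or IRE1PKO 1 (adjusted p up to 0.0764). The exosome subunit Exosc5 had -0.44 (SE 0.12, adjusted p = 0.0362), a call that held without IRE1fl 1 and was lost without any other single library (adjusted p up to 0.135). It was also lost with limma-voom (0.056) and when counts were scaled by library totals alone (0.0568).

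The relatives of the substrates were compared in the same way, beside 5.68% of all tested genes called higher and 3.86% lower. Of 15 tested reticulons and other ER-shaping genes, Rtn4 and Reep5 rose and none fell, with 12 values above 0 and a median of 0.23. Reep5, a protein of ER tubules, had 10.8, 12.3 and 11.5 CPM in IRE1fl and 24.8, 18.8 and 17.9 CPM in IRE1PKO, a log2 fold change of 0.83 (SE 0.14). Among the other reticulons, looked up after their values were seen, Rtn3 had 98.8 ± 2.60 and 108 ± 3.87 CPM and a log2 fold change of 0.13 (SE 0.08, adjusted p = 0.357). Rtn1, at 0.835 to 1.33 and 1.83 to 2.34 CPM, had a log2 fold change of 0.97 (SE 0.30) but did not pass (adjusted p = 0.0692). None of 13 BLOC-1 and BORC subunits passed, and Bloc1s2 had the smallest p beside a log2 fold change of -0.39 (SE 0.13, adjusted p = 0.0944). None of 12 tested genes of mucin-type O-glycosylation passed (median 0.15). Their smallest p was that of C1galt1, which extends the chain that Galnt2 starts (log2 fold change 0.33, SE 0.12, adjusted p = 0.099). Of 11 genes of MHC class I peptide loading, H2-D1 alone rose, by a log2 value of 0.43 (SE 0.10). H2-D1 is one of a family of near-identical genes, so its reads may be shared, and its call held only without IRE1PKO 3 when a library was left out (adjusted p up to 0.103). None of 9 genes of heparan sulfate breakdown passed, and Gusb, a lysosomal glucuronidase, had the smallest p (log2 fold change 0.27, SE 0.11, adjusted p = 0.143). None of the 4 PMP22 and EMP family genes did, with the smallest p for Emp1 (log2 fold change 0.64, SE 0.33, adjusted p = 0.254). Of 5 class A scavenger receptors Marco fell, from 22.4 ± 0.915 to 12.5 ± 2.30 CPM (SD, n = 3), a log2 fold change of -0.84 (SE 0.13). Marco is also a Kupffer cell marker, and the other 7 of the 8 Kupffer cell markers had values above 0. Scara5, named after its values were seen, had 32.9 to 48.0 CPM in IRE1fl and 2.23 to 11.4 CPM in IRE1PKO without passing (log2 fold change -2.64, SE 0.64, adjusted p = 0.0856).

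For Ern1 and Rtn4, the genes with the most similar profile over the 6 libraries were found by the root mean square (RMS) difference of log2 CPM after each gene was centred on its mean, among 7867 other genes with a mean of 10 CPM or more. These are descriptions with no test, and fold changes close to that of Ern1 or Rtn4 follow from this choice. Closest to Ern1 were Apon, Slc30a5, Tut1, Ell and Gpc4, with RMS differences of 0.064 to 0.083. All 5 shared the low values of library 2 in both groups, and so did Rtn4. Of them, Apon, which encodes an apolipoprotein, had 407 to 505 CPM in IRE1fl and 290 to 357 CPM in IRE1PKO. Closest to Rtn4 were Ctps2, Plekha1, Tfrc, Pdgfrb and Pigp, with RMS differences of 0.070 to 0.107. Their levels were 1.75-fold to 1.97-fold higher in IRE1PKO, beside 1.96-fold for Rtn4. Library 2 was the lowest of each group for these genes too, except for Pigp in IRE1PKO.

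**Figure D4:**
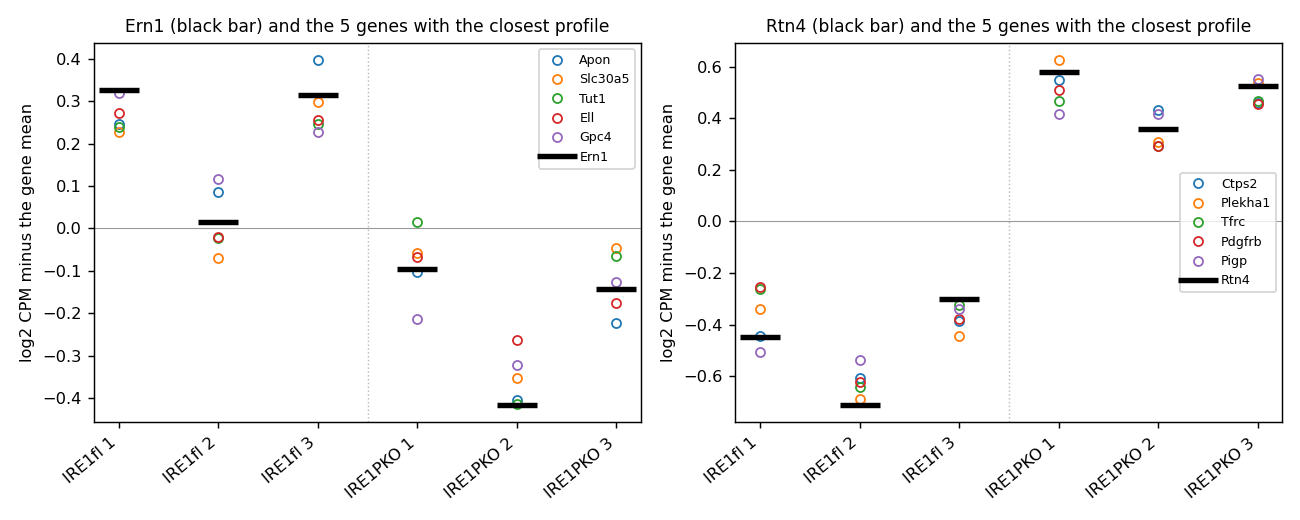
Log2 CPM minus the mean of each gene (y axis) in the 6 libraries (x axis) for Ern1 and Rtn4 (black bars) and the 5 genes closest to each (open circles). The Ern1 set is lowest in library 2 of each genotype, as is the Rtn4 set apart from Pigp in IRE1PKO. Every gene of the Rtn4 set is below its mean in IRE1fl and above it in IRE1PKO.

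Library depth was even. Totals ran from 35776219 to 39277435 counts, with 18649 to 19153 genes detected, and the 8 genes together took 12798 to 18163 counts per library. Of 8 anterior pituitary hormone and lineage genes, 6 had no count in any library, and none was tested. No pair of libraries within a group was a copy, with a chi-square of 23.4 to 51.5 per gene.

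**Figure D5:**
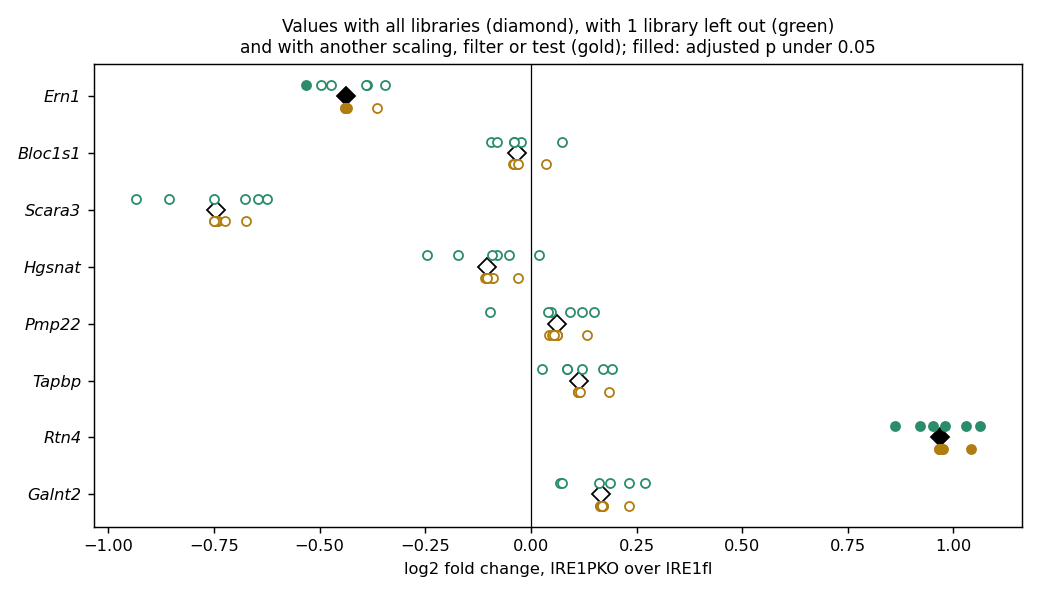
Log2 fold change (x axis) of each gene with all libraries (black diamond), with 1 library left out (green) and with another scaling, filter or test (gold), filled where the adjusted p was under 0.05. Rtn4 is filled throughout between 0.86 and 1.06, and Ern1 is filled in 8 of 15 alternatives.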

How the data were processed

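Poly(A) RNA of mouse liver was sequenced in 6 libraries. Raw counts, as whole numbers for each gene symbol with a column per library, were deposited by the authors. Per the submitters' processing notes the build was mm10. The sources used here do not give the aligner, counting program or annotation. Even counts from 1 to 8 outnumbered odd ones by 2.58 to 3.19 times, so counts may hold both mates of a pair.

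Columns were matched to samples by name. Of 35976 rows, 14954 passed edgeR's filterByExpr. After TMM scaling, edgeR 4.0.16 in R 4.3.3 fitted a robust quasi-likelihood model. Its two-sided p-values were adjusted by Benjamini-Hochberg across these genes, and those under 0.05 passed. SE is the log2 fold change over the root of its F, and intervals use the model's degrees of freedom. An exact permutation test of 3 against 3 cannot go below 0.1. The steps were tested on simulated data.

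Members and lists (198 symbols, 4 under older names) were chosen with earlier results of these data known. The rule named all 8 genes, from each of 11 pathway lists up to 4 genes that passed or else the smallest p, and 5 profile matches each for Ern1 and Rtn4. Lists got no set test. 1 listed gene is not reported here and is left out of its list's counts. Alternatives were DESeq2 1.42.0, limma-voom (limma 3.58.1), other scalings and filters, no robust fitting, halved counts, a threshold of 0.1, the replicate block and each library left out.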

Additional observations from a re-analysis of the deposited data

How the results depend on the processing

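The Rtn4 call was the only member call that held in each alternative run. Ern1 kept its direction throughout, but its call was lost with library totals as the only scaling (-0.37, adjusted p = 0.066) and with limma-voom (-0.44, adjusted p = 0.0512), so 0 members were lower there. With 1 library left out Ern1 ran from -0.53 to -0.35, and the count of lower members from 0 to 1. Values near 0 changed sign: Bloc1s1 was 0.036 with library totals and ran from -0.094 to 0.072 with 1 library left out, Hgsnat from -0.25 to 0.019 and Pmp22 from -0.097 to 0.15. Over all genes, 849 were called higher and 577 lower. With 1 library left out these counts ran from 398 to 868 and from 255 to 616. At a threshold of 0.1 they were 1299 and 992, and DESeq2 called 890 lower. With library totals the median of all genes moved to 0.069 and 73.4% of calls were higher, in place of 59.5%. Deviations of same-numbered libraries correlated weakly (r of 0.0712, -0.0216 and 0.101, beside -0.107 to 0.0346 for other pairs across the groups). With 3 libraries per group these values cannot settle whether the numbers pair them. With the replicate block Ern1 was -0.44 (adjusted p = 0.00468) and Rtn4 0.97, no member's call changed, and 1051 genes were higher and 814 lower. Depth limits Scara3 most, at 42 to 92 counts.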
